A study of Homo sapiens with 12 samples.

Results

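The MYC and PVT1 locus was taken as the stretch of chromosome 8 from 128.65 to 129.25 Mb (hg19), which runs from before MYC to beyond the downstream end of PVT1. It held 22 of the 48876 regions formed by joining H3K27ac peaks that shared a base in any of 6 peak lists. The members are all regions within these positions, so no value below decided membership. Which members were tested or described singly depended in part on their covered bases and on presence of peaks. The choice was made with earlier results of these data known. The lists came from SUDHL4 cells, a line grown from a diffuse large B-cell lymphoma, in which CRISPR/Cas9 had been used to make single clones by limiting dilution. All clones had been through editing and cloning: 2 were edited at PPP1R12C, a site used as neutral, and kept both acetyltransferases (WT), 2 lacked CREBBP after cutting at exon 15 or exon 20 (CREBBP-KO), and 2 lacked EP300 after cutting at exon 17 or exon 24 (EP300-KO). CREBBP-KO clone 1 is named after a different exon from the one its protocol gives. The cells were untreated and growing in log phase, and each genotype is represented by 2 lines that each descend from 1 cell.

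MYC encodes a transcription factor that drives growth and division, and its level is set largely by enhancers spread over the gene deserts on either side of it. PVT1, a long noncoding RNA gene, lies downstream of MYC, holds several MYC enhancers inside its body, and its own promoter can compete with that of MYC for them. In germinal-centre B cells MYC is switched on briefly in cells selected to divide again, and many lymphomas keep it on. H3K27ac, acetylated lysine 27 of histone H3, marks active promoters and enhancers, and CREBBP and EP300 are the paralogous enzymes that write most of it. The comparisons ask whether the acetylated elements of this locus differ when either enzyme is missing.

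Per list, 15 to 22 peaks fell in the locus, out of 35054 to 46940 peaks in all. The lists hold no read counts, so depth is unknown and the values are covered bases, the length of sequence under peaks. Genome-wide, peaks covered 33.9 and 31.3 Mb in the WT clones, 28.2 and 35.1 Mb in the CREBBP-KO clones and 26.1 and 26.2 Mb in the EP300-KO clones, and WT clone 1 had the most peaks. In all 6 clones, peaks covered 3513 to 4000 bases within 2 kb of the start of each of the B-cell genes CD79A, MS4A1 and PAX5 and of the germinal-centre gene BCL6. No clone had a peak there at CD3E, CD14 or ALB, genes of T cells, monocytes and hepatocytes. With 2 clones against 2, no exact permutation test can go below p = 0.333. The tests measure the spread between clones, and both knock-outs were compared with the same WT clones.

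Acetylation in the locus lay at MYC and on its PVT1 side. None of the 6 clones had a peak from 128.65 Mb up to 2 kb before the MYC gene, on the side where the long noncoding RNA gene CASC11 is its neighbour. Of the 22 regions, 4 lay at MYC, within 2 kb of the gene, and 18 lay downstream. Stitching peaks across gaps of up to 3 kb joined them into 9 elements, of which 8 had peaks in all 6 clones. By the distance of their centres from the start of MYC, these 8 lay at 3.03 kb (MYC itself), 28.0, 53.2, 61.9 (the PVT1 start), 240, 314, 439 and 469 kb. The exception, a peak of 270 bases at 47.9 kb, was in WT clone 1 alone.

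**Figure D1:**
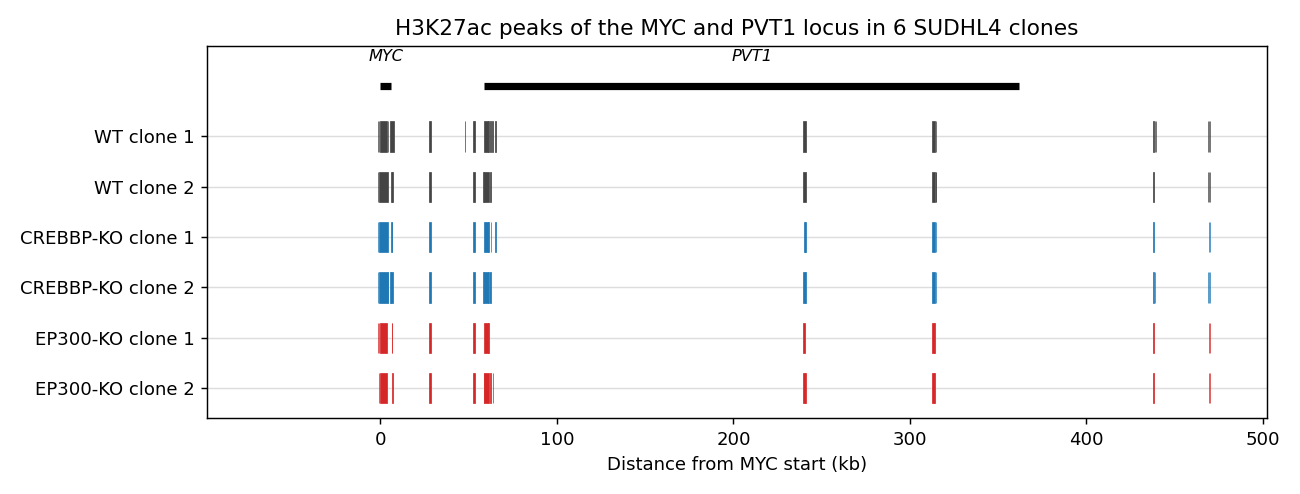
H3K27ac peaks of the locus in each clone (rows; blocks are peaks) by distance from the start of MYC in kb, with the 2 genes as black bars. Every clone has the same 8 clusters of peaks, none of them before MYC, and a further small peak at 47.9 kb is in WT clone 1 only.

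The element at MYC was the longest of the 9 in every clone. It spanned chr8:128746500-128755567, from before the promoter to past the end of the gene. Covered bases were 6937 and 6267 in the WT clones, 6071 and 6366 in CREBBP-KO, and 4984 and 4602 in EP300-KO. Both EP300-KO clones lay below all 4 other clones, while the CREBBP-KO clones overlapped the WT range. The mean was 6.60 ± 0.47 kb for WT, 6.22 ± 0.21 kb for CREBBP-KO and 4.79 ± 0.27 kb for EP300-KO (SD, n = 2 each). The EP300-KO mean differed from that of WT by -27.4% (exact two-sided permutation p = 0.333). Relative to each clone's median element the log2 difference of EP300-KO from WT was -0.26 (SE 0.12, 95% interval -0.57 to 0.06), and limma's adjusted p over all elements was 0.28. For CREBBP-KO it was -0.03 (SE 0.12, -0.34 to 0.29, limma's adjusted p = 0.96), and the 2 knock-outs differed directly by 0.23 (SE 0.12, -0.08 to 0.55, limma's adjusted p = 0.30).

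Within that element, the 6 clones shared a core over the promoter and most of the gene, and differed mainly at the downstream flank. The core, chr8:128747042-128752252, had 4632 and 5022 covered bases in WT, 5211 and 5097 in CREBBP-KO and 4400 and 4417 in EP300-KO. On this raw scale CREBBP-KO lay above and EP300-KO below both WT clones, a pattern whose share over all regions is not given. On the centred log2 scale the EP300-KO difference from WT had the other sign (0.08, SE 0.14, limma's adjusted p = 0.75), whereas without centring it was -0.13. The core's highest peak scored above 93.8 to 98.8% of its own clone's list, by the authors' own score per peak, which has no stated meaning and serves only to rank peaks within a list.

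The last base of the core was 128751774 and 128751830 in EP300-KO, 128751888 and 128752087 in WT, and 128752252 and 128752159 in CREBBP-KO. So the downstream edge lay nearest the gene's start in both EP300-KO clones and farthest from it in both CREBBP-KO clones. A gap without peaks split the core just before the start of MYC in 3 clones. It measured 293 and 298 bases in the EP300-KO clones and 197 bases in WT clone 1. WT clone 2 and both CREBBP-KO clones had 1 unbroken peak there.

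The downstream flank of MYC, chr8:128753646-128755567, around the end of the gene, differed most among the tested regions of the locus between EP300-KO and WT. It had 1922 and 916 covered bases in WT, 622 and 767 in CREBBP-KO and 356 and 185 in EP300-KO. The 3 genotypes did not overlap, with WT highest and EP300-KO lowest, although the 2 WT clones differed from each other by more than the CREBBP-KO clones differed from WT clone 2. For EP300-KO the log2 difference was -1.79 (SE 0.39, 95% interval -2.80 to -0.78), with a p of 0.0067 before adjustment and limma's adjusted p of 0.075, which missed the threshold of 0.05. For CREBBP-KO it was -0.82 (SE 0.39, -1.83 to 0.19, limma's adjusted p = 0.68), and between the knock-outs 0.97 (SE 0.39, -0.04 to 1.98, limma's adjusted p = 0.21). Without WT clone 1, the higher of the 2, the EP300-KO difference was -1.33 (limma's adjusted p = 0.14). Over the 14 alternatives it ran from -2.25 to -0.80, with limma's adjusted p from 0.051 to 0.19.

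A pair of short regions at MYC was too small for the test, which needed 500 covered bases or more in a pair of clones. The region upstream of the core, chr8:128746500-128746872, had 274 and 329 bases in WT, 238 and 373 in CREBBP-KO, and 228 and 0 in EP300-KO. That at chr8:128752314-128752466, just after the core, was seen in WT clone 1 (109 bases) and CREBBP-KO clone 2 (129 bases) and in no other clone.

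The element at the PVT1 start was the second longest and its main block had nearly the same covered length in all clones. That block, chr8:128806763-128809793, began at the PVT1 promoter and ran into the gene, with 2877 and 3024 covered bases in WT, 2863 and 2835 in CREBBP-KO and 2764 and 2963 in EP300-KO. A gap split it in 4 clones and it was unbroken in WT clone 2 and EP300-KO clone 2. The genotypes overlapped apart from CREBBP-KO, whose 2 clones lay just below both WT clones. The log2 difference from WT was -0.01 in CREBBP-KO (SE 0.13, 95% interval -0.36 to 0.34, limma's adjusted p = 0.99) and 0.16 in EP300-KO (SE 0.13, -0.19 to 0.51, limma's adjusted p = 0.48), the latter -0.04 without centring. Its best peak outscored 91.46 and 94.21% of the clone's list in WT, 95.2 and 93.86% in CREBBP-KO and 84.86 and 83.17% in EP300-KO. By this rank both EP300-KO clones lay below the others. The difference in rank was not tested, and the share of all regions with such a split is not given.

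Short peaks around that block came and went between clones of the same genotype. The one before the PVT1 start, chr8:128806427-128806597, had 171 bases in WT clone 2, 124 in CREBBP-KO clone 2 and 101 in EP300-KO clone 2, and was missing from clone 1 of each genotype. Over the whole element at the PVT1 start, covered bases were 3791 and 3398 in WT, 3099 and 3628 in CREBBP-KO and 2764 and 3327 in EP300-KO. The log2 differences from WT were -0.04 (SE 0.13) for each knock-out, with limma's adjusted p of 0.94 for CREBBP-KO and 0.86 for EP300-KO, and the knock-outs differed by 0.003 (SE 0.13, limma's adjusted p = 0.99).

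A pair of elements lay between the genes. The one 28.0 kb from MYC, chr8:128775424-128776650, had the narrowest range of covered bases among the 8 elements seen in every clone, with 1119 and 1066 covered bases in WT, 1141 and 1186 in CREBBP-KO and 1187 and 1140 in EP300-KO. All 4 knock-out clones lay above both WT clones, and the EP300-KO difference was 0.29 on the centred log2 scale (SE 0.11, 95% interval 0.00 to 0.57, limma's adjusted p = 0.22). The CREBBP-KO difference was 0.12 (SE 0.11, limma's adjusted p = 0.83). Without centring the difference from WT was 0.08 in each knock-out. The one 53.2 kb from MYC, chr8:128800707-128801773, had 1067 and 780 bases in WT, 687 and 907 in CREBBP-KO and 708 and 764 in EP300-KO. EP300-KO lay below WT and CREBBP-KO overlapped it, with log2 differences of -0.08 and -0.15 (SE 0.15 each) and limma's adjusted p of 0.75 and 0.85.

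Inside PVT1, 2 more elements carried acetylation. The nearer, chr8:128987521-128989238, had 1718 and 1336 covered bases in WT, 788 and 1306 in CREBBP-KO and 702 and 1104 in EP300-KO. All 4 knock-out clones lay below both WT clones, CREBBP-KO clone 2 by the least. The log2 difference from WT was -0.49 in CREBBP-KO (SE 0.26, 95% interval -1.18 to 0.19, limma's adjusted p = 0.73) and -0.52 in EP300-KO (SE 0.26, -1.20 to 0.17, limma's adjusted p = 0.31), and the knock-outs differed by 0.02 (SE 0.26, -0.67 to 0.71).

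The farther, 314 kb from MYC, paired a long block with a short peak behind it. The block, chr8:129060250-129062049, had 1749 and 1780 bases in WT, 1678 and 1773 in CREBBP-KO and 1434 and 1559 in EP300-KO, where it was broken into 2 peaks in both clones and in no other. Both EP300-KO clones lay below all others on this raw scale, while the centred log2 difference from WT was -0.02 (SE 0.11, 95% interval -0.32 to 0.27, limma's adjusted p = 0.91) and that of CREBBP-KO 0.01 (SE 0.11, limma's adjusted p = 0.99). The block's best peak outscored 90.13 and 87.05% of the list in WT, 84.32 and 85.38% in CREBBP-KO and 74.96 and 77.04% in EP300-KO. This difference in rank was not tested either. The short peak, chr8:129062544-129062964, had 383 and 290 bases in WT, 153 and 154 in CREBBP-KO and was missing from both EP300-KO clones. It stood below the size filter, and its scores of 26 to 31 put it near the low end of the lists.

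Beyond PVT1 the last 2 elements were short and uneven. At chr8:129185692-129187316 the clones had 1198 and 470 covered bases in WT, 728 and 762 in CREBBP-KO and 559 and 521 in EP300-KO, so that WT clone 1 was far above and WT clone 2 below every other clone. At chr8:129216753-129218242 they had 907 and 662 in WT, 502 and 855 in CREBBP-KO and 624 and 356 in EP300-KO, with EP300-KO below WT and CREBBP-KO reaching both sides of WT clone 2. Its first part, chr8:129216753-129217048, had 225 and 247 bases in WT, 0 and 249 in CREBBP-KO, and no EP300-KO clone had a peak there. This part too stood below the size filter, and its scores of 27 to 30 put it near the low end of the lists.

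**Figure D2:**
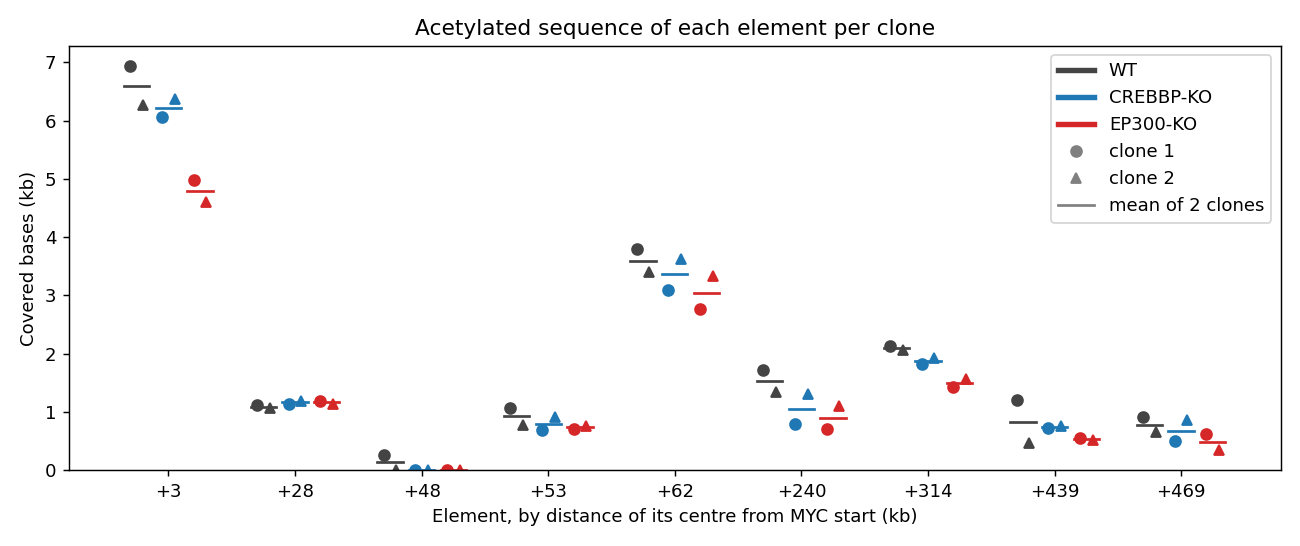
Covered bases (kb) of the 9 elements in each clone, ordered by distance from MYC; points are clones, short lines the mean of 2 clones. EP300-KO stands apart from WT and CREBBP-KO at MYC (4984 and 4602 bases) and at 314 kb (1434 and 1559 bases), while at 28 kb all clones lie between 1066 and 1187 bases.

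EP300-KO had fewer covered bases than WT at most of these elements. Of the 8 elements tested, 6 had EP300-KO wholly below WT and 1 had it wholly above. Over all 14360 elements tested, 50.6% had EP300-KO wholly below WT and 10.3% wholly above. For CREBBP-KO, 2 of 8 lay wholly below WT and 1 wholly above, beside 19.4% and 12.8% of all elements. CREBBP-KO lay wholly above EP300-KO at 3 of 8, beside 41.2%, and wholly below at none, beside 14.7%. By limma none of the 8 was called in any comparison. Their median centred log2 difference from WT was -0.25 in EP300-KO, beside 0.03 over all elements, and -0.07 in CREBBP-KO, beside 0.01. It was negative at 7 of the 8 in EP300-KO, beside 46.6% of all elements, and at 6 in CREBBP-KO, beside 48.1%. These counts depended on the lists and on how peaks were joined. With lists of equal length 5 of the 8 were negative in EP300-KO (median -0.09), beside 45.4% of all elements, and 4 in CREBBP-KO, beside 48.2%. Without WT clone 1 the EP300-KO median was -0.13. Of the 8 merged regions tested, 4 were negative in EP300-KO, beside 43.1% of all regions. Over all elements the calls for EP300-KO against WT were 3.73% lower and 1.27% higher, those for CREBBP-KO 0.327% lower and 0.132% higher, and those between the knock-outs 4.76% higher and 2.17% lower in CREBBP-KO.

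None of the tested regions of the locus passed limma's adjusted threshold in any comparison. Of the 8 regions with enough covered bases, none was called in CREBBP-KO (background 0.181% of 19860 regions lower and 0.111% higher), none in EP300-KO (5.32% lower, 1.07% higher) and none between the knock-outs (5.95% higher in CREBBP-KO, 1.58% lower). At p under 0.05 before adjustment, 1 region of the 8 passed in EP300-KO against WT, the downstream flank of MYC, and none in the other comparisons. Of all 19860 regions, 4496 passed at that level for EP300-KO against WT. For CREBBP-KO against WT 1693 passed, and between the knock-outs 5043. The median log2 difference of the 8 was 0.01 in EP300-KO, beside 0.06 over all regions, and 0.00 in CREBBP-KO, beside 0.02. These differences are relative to each clone's own median, which lay 0.20 lower on the log2 scale in EP300-KO than in WT (-0.20) and 0.04 lower in CREBBP-KO (-0.04). With the filter on covered bases removed, the short peak behind the block at 314 kb was called lower in EP300-KO than in WT (log2 difference -1.92, limma's adjusted p = 0.017). It was also called in the comparison of the knock-outs, with the higher value in CREBBP-KO (1.18, limma's adjusted p = 0.041). The size of those differences depends on the pseudocount, because the EP300-KO clones have no peak there.

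Presence of peaks gave a similar picture. The WT clones had peaks in 20 and 15 of the 22 regions, the CREBBP-KO clones in 14 and 18 and the EP300-KO clones in 11 and 13, and 10 regions had a peak in all 6 clones (45.5%, beside 44.8% of all merged regions). Of 14 regions present in both WT clones, 2 were absent from both EP300-KO clones, the short peak behind the block at 314 kb and the first part of the element at 469 kb. Over the genome 14.8% of such regions were absent from EP300-KO. None of the 14 was absent from both CREBBP-KO clones, beside 4.94% over the genome. Of 13 regions in both CREBBP-KO clones, 1 was absent from EP300-KO, beside 11.5%. No region was present in both clones of a knock-out and absent from WT, beside 3.33% of 25546 regions for EP300-KO and 2.2% of 27675 for CREBBP-KO. None was in both EP300-KO clones and in neither CREBBP-KO clone, beside 5.34%. Both losses in EP300-KO disappeared when the lists were limited to the same 35054 best-scoring peaks and when peaks within 500 bases were merged. Without WT clone 2, 7 regions counted as lost, out of the 20 in WT clone 1, whose list was the longest. The count for CREBBP-KO was 3 of these 20 without WT clone 2, and 1 of the 14 without CREBBP-KO clone 2. Regions of CREBBP-KO that EP300-KO lacked numbered 5 without CREBBP-KO clone 1, out of the 18 in CREBBP-KO clone 2. They numbered 2 without any 1 of the other knock-out clones. Shares over the genome are not given for these settings.

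Base by base, what EP300-KO lacked lay at several elements. In both WT clones 15137 bases of the locus lay under peaks, of which 1863 were under no EP300-KO peak (12.3%, beside 14.9% over the genome) and 492 under no CREBBP-KO peak (3.25%, beside 3.84%). The MYC element contributed 829 of the 1863, 14.3% of its own WT bases, against 11.1% in the rest of the locus. The longest unbroken stretch was 456 bases at chr8:128753967-128754422, around the end of the MYC gene, followed by 224 bases at chr8:128988398-128988621 and 192 at chr8:129216802-129216993. At 28.0 kb no such base was found. Bases under peaks in both EP300-KO clones and in neither WT clone numbered 35, all at the element 28.0 kb from MYC (0.29% of 12069, beside 2.79% over the genome).

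Set against the MYC gene with 2 kb on either side, the PVT1 side gave values of the same order. That span holds more than the promoter. Its core, over the promoter and most of the gene, averaged 4827 bases in WT and 4408.5 in EP300-KO. Its downstream flank averaged 1419 and 270.5. The promoter alone was not compared with the PVT1 side. All elements after MYC together covered 12.2 and 9.78 kb in the WT clones. For CREBBP-KO this sum was 8.78 and 10.6 kb, and for EP300-KO 7.98 and 8.77 kb. EP300-KO lay below WT, with a difference of means of -23.8% (exact two-sided permutation p = 0.333), and CREBBP-KO overlapped it (-12.0%, exact permutation p = 0.667). Without WT clone 1 the log2 ratio of means, EP300-KO to WT, was -0.22 on the PVT1 side and -0.39 at MYC. The ratio of PVT1-side to MYC bases was 1.76 and 1.56 in WT, 1.45 and 1.66 in CREBBP-KO and 1.60 and 1.91 in EP300-KO. These ranges overlapped in every pair of genotypes (exact two-sided permutation p = 0.667 for each).

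Taken as 1 window of 600 kb, the locus had 19.1 and 16.0 kb under peaks in the WT clones, 14.8 and 16.9 kb in the CREBBP-KO clones and 13.0 and 13.4 kb in the EP300-KO clones. Both EP300-KO clones were lower than the other 4, and their mean differed from that of WT by -25.2% (exact two-sided permutation p = 0.333), beside -19.7% for the whole genome. EP300-KO lay wholly below WT in 63% of the 2575 windows tested, and CREBBP-KO wholly above EP300-KO, as in the locus, in 46%. The share of each clone's covered sequence that lay in the locus was 0.0565 and 0.0513% in WT, 0.0526 and 0.0483% in CREBBP-KO and 0.0497 and 0.051% in EP300-KO. The centred log2 difference from WT was -0.18 in EP300-KO (SE 0.09, 95% interval -0.40 to 0.05, limma's adjusted p = 0.23) and -0.07 in CREBBP-KO (SE 0.09, -0.29 to 0.16, limma's adjusted p = 0.75). The knock-outs differed by 0.11 (SE 0.09, -0.12 to 0.34, limma's adjusted p = 0.40). The locus was called in none of the 3 comparisons. The windows called by limma were 6.64% lower and 3.88% higher for EP300-KO, 0% and 0.0777% for CREBBP-KO, and 10.7% higher and 6.1% lower for CREBBP-KO against EP300-KO. Without centring, 235 windows were called lower and 31 higher in EP300-KO, where centring gave 171 and 100. In 28.8% of windows the log2 difference of EP300-KO lay below that of the locus.

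**Figure D3:**
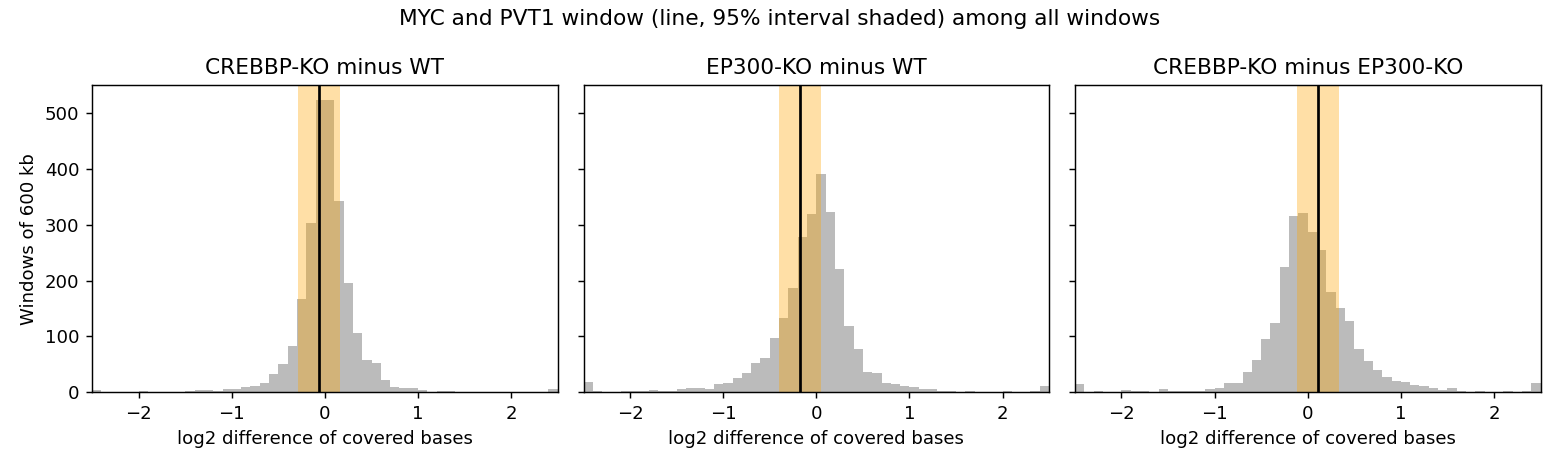
Number of 600 kb windows (vertical axis) by log2 difference of covered bases (horizontal axis) for the 3 pairs of genotypes, with the locus as a line and its 95% interval shaded; values past the ends of the axis are in the end bars. The locus, at -0.07, -0.18 and 0.11, lies within the bulk of windows each time.

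Among the 2575 windows that passed the filter on covered bases, the locus was well covered. It had 15.6 kb on average over the 6 clones against a median of 7.79 kb, more than 75.5% of these windows. By Euclidean distance over the 6 centred clone values, the windows most like it among the 2575 were those on chromosome 12 at 54.25 to 54.85 Mb (distance 0.14), chromosome 20 at 47.65 to 48.25 Mb (0.17) and chromosome 18 at 13.45 to 14.05 Mb (0.18).

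Between clones, the overlap of peaks in the locus was highest for the 2 EP300-KO clones. Their Jaccard index, the shared bases over all bases covered in either, was 0.846 here and 0.806 over the genome. The lowest indices were those of WT clone 1 with the EP300-KO clones (0.669 and 0.673). WT clone 1 shared less with WT clone 2 (0.755) than WT clone 2 did with either CREBBP-KO clone (0.816 and 0.832). Of the 20977 bases covered in at least 1 clone, 11638 were covered in all 6.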

How the data were processed

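H3K27ac ChIP-seq peak lists of 6 SUDHL4 clones were analysed, 1 list per clone. Reads had passed through CASAVA 1.8, Bowtie2 2.1.0 and SAMtools 0.1.19, with hg19 as build, per the submitters' processing notes. The sources used here do not name the program that called the peaks. Per the file headers, each list is a bedGraph of peaks of 1 library against its own input, so starts count from 0 and 1 was added to each printed start. The authors deposited a score per peak with no stated meaning. The members and lists were chosen with earlier results of these data known, and the 3 kb elements and the mean-dependent prior after seeing the data.

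Peaks sharing a base were merged. Covered bases were tested with limma 3.58.1 (R 4.3.3, eBayes) on log2(covered bases + 100), less each clone's median of that value among features with peaks in all 6 clones. All 6 clones shared 1 estimate of the spread. Regions and elements needed 500 and windows 2000 covered bases in at least 2 clones, and p-values were adjusted (Benjamini-Hochberg) over the genome. Log2 differences understate changes of short regions. Windows of 600 kb were laid so that 1 of them was the locus. Single values were tested by exact permutation over clones (scipy 1.17.1). The fit was tested on simulated data.

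Regions named with values were those at MYC, at the PVT1 start, the 6 longest, and any called or lost. Further regions are given within elements. The MYC span and the PVT1 end are from the locus definition. The starts of PVT1 and of the marker genes on hg19 are general knowledge, from no file used here. Where CASC11 lies was read as gene order from the GRCh38.p14 RefSeq table. The input libraries were not analysed here. A further marker gene is not reported here.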

Additional observations from a re-analysis of the deposited data

Results flagged for a closer look

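At the core of the MYC element both CREBBP-KO clones had more covered bases than either WT clone and both EP300-KO clones fewer, so on the raw scale the knock-outs lay on opposite sides of WT. The mean of CREBBP-KO exceeded that of EP300-KO by 745.5 bases. On the centred log2 scale both knock-outs lay above WT, by 0.13 for CREBBP-KO and 0.08 for EP300-KO (limma's adjusted p = 0.87 and 0.75). In limma's direct comparison of the knock-outs the centred log2 difference was 0.06 (SE 0.14, 95% interval -0.31 to 0.42, adjusted p = 0.82), and it did not pass. The share of all regions with the knock-outs on opposite sides of WT is not given. Taken singly, over all elements, 50.6% had EP300-KO wholly below WT and 12.8% had CREBBP-KO wholly above it.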

How the results depend on the processing

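No paired analysis was possible because the replicate numbers only name clones. None of the tested regions or elements, nor the window, was called in any comparison under any alternative that kept the filter on covered bases. Without the filter 1 region was called lower in EP300-KO than in WT and 1, the same, was higher in CREBBP-KO when the knock-outs were compared. Over all 48876 regions such calls numbered 1947 and 1754. Presence was less steady: regions in both WT clones and neither CREBBP-KO clone numbered 1 when a peak had to cover at least 0.5 of the region, and 0 to 3 with 1 clone left out. Those lost in EP300-KO numbered 0 with lists of equal length and 0 with peaks within 500 bases merged, and 2 to 7 with 1 clone left out. Those in CREBBP-KO and not WT numbered 1 with equal length and 0 to 1 with a clone left out. Those in CREBBP-KO and not EP300-KO numbered 0 with that cover required, 0 with merging and 2 to 5 with a clone left out. Those in EP300-KO and not CREBBP-KO numbered 0 to 1. Leaving out a clone also changes how many regions can be lost, and shares over the genome are not given for these settings. Divided by genome-wide covered length, the log2 ratio of the PVT1 side, CREBBP-KO to EP300-KO, was -0.065 in place of 0.21. The log2 ratio of the PVT1 side to MYC, CREBBP-KO minus WT, was 0.013 with equal length and -0.20 to 0.0031 with a clone left out, and EP300-KO minus WT -0.050 to 0.20.

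Signs of differences that were never called flipped in these cases. Without centring, EP300-KO minus WT was -0.13 at the MYC core and -0.042 at the PVT1 block, CREBBP-KO minus WT was -0.031 at the 314 kb block, and CREBBP-KO minus EP300-KO was 2.079e-05 at 28.0 kb and 0.091 at 53.2 kb. With a pseudocount of 1000 bases the 314 kb block gave -0.0021 (CREBBP-KO minus WT) and the MYC core -0.0046 (EP300-KO minus WT). With equal length the 314 kb block gave -0.0044 (CREBBP-KO minus WT), and the PVT1-start element 0.038, 0.049 and -0.011 for CREBBP-KO minus WT, EP300-KO minus WT and CREBBP-KO minus EP300-KO. A pseudocount of 10 bases gave -0.00195 for the last. Merging within 500 bases gave 0.054 at the PVT1 block and -0.11 at the 314 kb block (CREBBP-KO minus WT). With 1 clone left out, CREBBP-KO minus WT ran from -0.0067 to 0.27 at the MYC core, -0.32 to 0.016 at 53.2 kb, -0.14 to 0.12 at the PVT1 block, -0.078 to 0.093 at the 314 kb block and -0.13 to 0.080 for the MYC element. EP300-KO minus WT ran from -0.021 to 0.16 at the MYC core, -0.25 to 0.089 at 53.2 kb, -0.073 to 0.048 at the 314 kb block and -0.17 to 0.10 for the PVT1-start element. CREBBP-KO minus EP300-KO ran from -0.079 to 0.20 at the MYC core, -0.29 to 0.30 at 240 kb, -0.053 to 0.12 at the 314 kb block and -0.14 to 0.13 for the PVT1-start element. The cause of these changes was not tested. Read depth is unknown, so what it limits cannot be given.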
